A study of Mus musculus with 4 samples.

Results

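Of 11749 genes tested in mouse liver, 10 glutathione S-transferase genes were followed through a comparison of reciprocal hybrids. They were chosen by name from the platform annotation of the array, as genes of 4 structural classes of the cytosolic enzyme family: alpha (Gsta3, Gsta4), mu (Gstm1, Gstm2, Gstm3, Gstm4, Gstm6), pi (Gstp1) and theta (Gstt1, Gstt3). A total of 15 probe sets carried a single one of these symbols, out of 45101 on the array. For each gene the brightest probe set by mean log2 signal over the 4 arrays stands for the gene, and all the others are given beside it. All 10 genes lay above the filter on dim genes, so none was left out.

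Glutathione S-transferases join the tripeptide glutathione to reactive, electron-poor compounds, which makes them water-soluble and ready for export from the cell. In hepatocytes they are among the abundant soluble proteins and handle drug and carcinogen metabolites as well as aldehydes left by lipid peroxidation. Many of the alpha and mu genes are known targets of the transcription factor NRF2, which binds the antioxidant response element, and of the xenobiotic receptor CAR. Gstp1 is known to be more abundant in the liver of male than of female mice.

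RNA came from whole liver of males aged 9 months, 1 slice and 1 array per mouse, raised on chow in a specific-pathogen-free facility without any intervention. There were 2 AB6F1 males, bred from an AJ mother and a B6 father, and 2 B6AF1 males from the opposite cross of a B6 mother and an AJ father. The title of the series names nonalcoholic fatty liver disease, and its one comparison asks which liver transcripts differ with the direction of the cross. All 10 genes lie on autosomes (chromosomes 1, 3, 9, 10 and 19), where both crosses inherit one set from each parental strain, and the dam's strain supplies the X chromosome and mitochondria. The labels call the mice of a cross biological replicates, and the numbering of the source material runs separately for each cross, so handling and cross cannot be told apart. Values are deposited MAS5 signals, which are linear brightness on arrays each scaled to a trimmed mean of 500, and differences are AB6F1 minus B6AF1 on the log2 scale. The level of one probe set cannot be set against that of another, so genes are compared by their differences only.

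The arrays were alike, with Pearson correlations between 0.961 and 0.9752 across genes. The hepatocyte gene Alb was bright on every array, at 40787.9 and 38514.3 in AB6F1 and 40357.2 and 48624.7 in B6AF1. Whole liver was used, so fewer cells of a type and less RNA per cell cannot be told apart. The summed signal of 5 tested hepatocyte markers was 190942 to 207582 in AB6F1 and 202391 to 232531 in B6AF1, with 4 of the 5 lower in AB6F1. Macrophage markers were on the other side, with 7 of 7 higher in AB6F1 and sums of 8007.8 to 12671.7 in AB6F1 against 5193.5 to 6912.9 in B6AF1. Stellate cell and fibroblast markers were higher for 5 of 6, with sums of 9803.4 to 12845.1 in AB6F1 and 6979.7 to 7117.7 in B6AF1. Among them 2 collagen genes passed limma, Col3a1 at 1.81 ± 0.16 (adjusted p = 0.00931) and Col1a2 at 1.37 ± 0.17 (adjusted p = 0.0402), log2 with SE. Endothelial markers were higher for 3 of 3, with overlapping sums of 1014.3 to 1282.5 in AB6F1 and 762.3 to 1097.3 in B6AF1. Cholangiocyte markers, which were dim, were higher for 3 of 3, with sums of 308.7 to 351.1 in AB6F1 and 241.2 to 263.2 in B6AF1. Of the lymphocyte markers 1 was higher and 1 lower, and 2 of 2 pancreatic acinar markers were higher. None of these passed. No marker was listed at 0, and the part of cell composition in the results below was not tested.

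None of the 10 transferase genes passed limma with Benjamini-Hochberg adjustment at 0.05, a call made for 0.213% of all genes tested. At an unadjusted p under 0.05 there were 2, Gstp1 and Gstm6, both lower in AB6F1, where the share over all genes was 9.72% in either direction and 3.88% for lower genes. The signals of the crosses were fully separate for 4 genes, Gsta3, Gstm6, Gstp1 and Gstt1, all lower in AB6F1, against 41.2% of all genes in either direction, 18.7% in the lower and 22.5% in the higher direction. Over all genes tested 46.5% were lower, with a median log2 difference of 0.02. Of the 10 genes, 6 were lower and 4 were higher, with a median of -0.11. This balance depended on single mice of both crosses. Without AB6F1 replicate 1, 4 genes were lower and the median was 0.040. Without AB6F1 replicate 2 all 10 were lower at a median of -0.17. Leaving out B6AF1 replicate 2 gave 9 lower genes at a median of -0.13. Leaving out B6AF1 replicate 1 gave 6 at -0.082. For 7 of the 10 the gap between the mice of at least one cross was wider than the difference between the crosses, which held for 71.9% of all genes. With 2 arrays against 2, an exact two-sided permutation test of a single gene cannot give a p below 0.333.

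**Figure D1:**
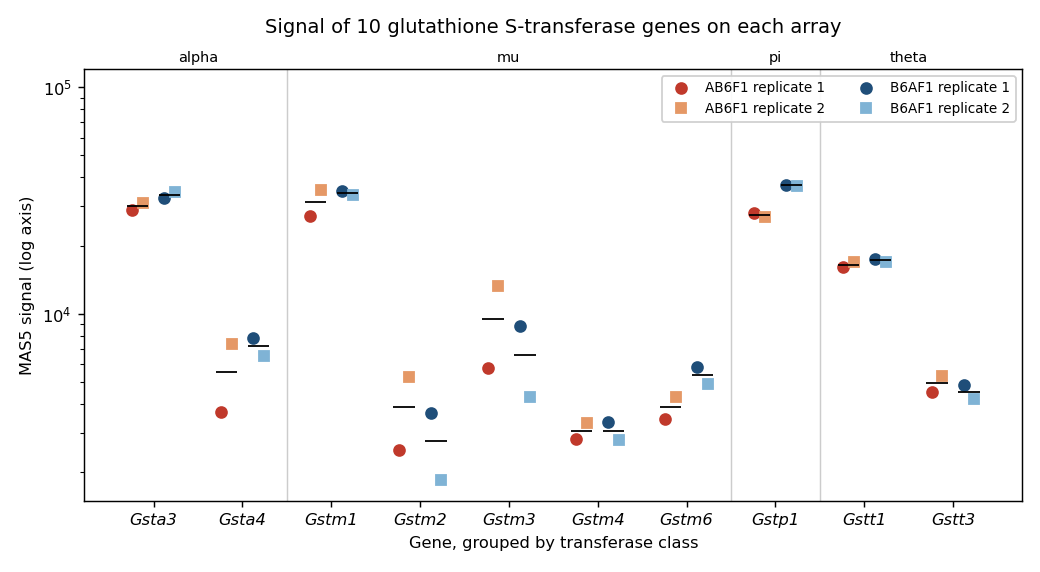
MAS5 signal (log axis) of the 10 genes on each of the 4 arrays, AB6F1 left and B6AF1 right of each tick, with bars at the mean of each cross (n = 2). Gstp1 shows separate pairs at 26728.2 to 27939.7 in AB6F1 and 36667.7 to 37074 in B6AF1, whereas Gstm2, Gstm3 and Gsta4 are spread out within a cross. Heights of different genes are not comparable.

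Gstp1, the pi-class enzyme, showed the tightest replicates of the 10 genes. Its signal was 27939.7 and 26728.2 in AB6F1 males, against 37074 and 36667.7 in B6AF1 males. Both AB6F1 arrays lay well below both B6AF1 arrays, and the mice of a cross were no more than 1.05-fold apart. The means were 27334 ± 857 in AB6F1 and 36871 ± 287 in B6AF1 (SD, n = 2 each), which is -0.43 ± 0.11 on the log2 scale (SE; adjusted p by limma = 0.309). The 95% interval of that difference ran from -0.69 to -0.17, before any adjustment for the number of genes. The difference kept its sign and close to its size without any single array, from -0.46 without AB6F1 replicate 1 to -0.40 without AB6F1 replicate 2. It did not pass the test under any of the alternatives run, with adjusted p from 0.251 to 0.956. Gstp1 was read by a single probe set of suffix _a_at. The neighbouring Gstp2, a close copy of Gstp1, had no value of its own, and how far the probe set reads both was not tested. Gstp3, a further pi-class gene, was on the opposite side, with signals of 1462 and 1782.2 in AB6F1 males, against 1216 and 814.6 in B6AF1 males. Its log2 difference was 0.70 ± 0.22 (SE; limma adjusted p = 0.384).

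The promoter of Gstp1 is shown because this gene had the smallest p of the 10. It is the RefSeq reference sequence of build GRCm38.p6, which is the B6 side only, from 250 bases before to 50 bases after the annotated start (chr19:4037863-4038162, minus strand). Capitals mark cores of the antioxidant response element (TGACNNNGC or TGAGNNNGC), GC boxes (GGGCGG) and CCAAT boxes (CCAAT), each searched on both strands.
Gstp1: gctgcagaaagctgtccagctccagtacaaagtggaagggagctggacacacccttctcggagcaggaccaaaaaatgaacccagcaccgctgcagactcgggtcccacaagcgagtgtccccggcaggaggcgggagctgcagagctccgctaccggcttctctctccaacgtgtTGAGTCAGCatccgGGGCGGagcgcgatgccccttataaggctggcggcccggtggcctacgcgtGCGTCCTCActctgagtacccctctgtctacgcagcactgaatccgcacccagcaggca
One antioxidant response element core, TGAGTCAGC, begins 74 bases before the start of Gstp1, and another lies on the opposite strand beginning 9 bases before it. Over all 32851 reference promoters, TGAGNNNGC was present in 17.6%, TGACNNNGC in 12.4%, the GC box in 35.7% and the CCAAT box in 37.4%. The Gstp2 promoter carries the same core, TGAGTCAGC, beginning 89 bases before its start, and is identical to that of Gstp1 in 77.1% of aligned columns. Pairs of promoters from different classes were identical in 43.6% to 54.4% of columns by the same global alignment. A match is a description of the letters and not a measured site.

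Of the 10 genes, the 2 with the widest spread between mice of a cross, Gstm3 and Gstm2, belong to the mu class. Of the 5 mu genes, Gstm2 and Gstm3 were on the higher side in AB6F1, Gstm6 and Gstm1 on the lower side, and Gstm4 at 0.00 ± 0.15 (log2, SE), with a class median of 0.00. Gstm4 had signals of 2809.2 and 3307.8 in AB6F1 and 3349.1 and 2772.2 in B6AF1, so that the crosses overlapped fully.

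Gstm6 was the second gene with an unadjusted p under 0.05. Its signal was 3430 and 4323.4 in AB6F1 males, against 5836.1 and 4886.1 in B6AF1 males. The pairs did not overlap, but AB6F1 replicate 2 and B6AF1 replicate 2 lay near each other. The log2 difference was -0.47 ± 0.16 (SE; limma adjusted p = 0.424), with a 95% interval from -0.85 to -0.10 before adjustment. It ranged from -0.64 without AB6F1 replicate 2 to -0.30 without AB6F1 replicate 1. Its neighbour on chromosome 3, Gstm7, which was not among the 10 genes, was at -0.30 ± 0.12 (SE; limma adjusted p = 0.501). The second probe set of Gstm7, at -0.42, was far dimmer, with signals of 175 and 126.2 in AB6F1 and of 216.8 and 181.2 in B6AF1.

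Gstm2 and Gstm3, which are next to each other among the mu genes, differed far more between mice of one cross than between the crosses. Gstm3 had signals of 5788.1 and 13258.2 in AB6F1 and of 8871.3 and 4299 in B6AF1. Gstm2 had signals of 2505.8 and 5288.1 in AB6F1 and of 3663 and 1855.4 in B6AF1. For both genes AB6F1 replicate 2 was the highest, followed by B6AF1 replicate 1, AB6F1 replicate 1 and B6AF1 replicate 2, so the crosses interleaved. The mice were 2.29-fold apart in AB6F1 and 2.06-fold apart in B6AF1 for Gstm3, and 2.11-fold and 1.97-fold apart for Gstm2. The within-cross SD of log2 signal exceeded that of 95.8% of all genes tested for Gstm3, at 0.79, and of 94.7% for Gstm2, at 0.73.

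The differences between the crosses were 0.50 ± 0.44 (SE; limma adjusted p = 0.747) for Gstm3 and 0.48 ± 0.41 (SE; limma adjusted p = 0.743) for Gstm2. Both signs turned when either of 2 mice was left out: the log2 differences were -0.093 for Gstm3 and -0.057 for Gstm2 without AB6F1 replicate 2, and -0.018 and -0.0090 without B6AF1 replicate 2. Without AB6F1 replicate 1 they were 1.10 and 1.02. The brightest probe set of Gstm3 has the suffix _s_at, which marks probes shared with related transcripts. The other, of suffix _at, gave 791.8 and 3655.1 in AB6F1, against 1856.1 and 616.6 in B6AF1, the same order of arrays with wider gaps. The order seen in Gstm2 and Gstm3 was shared by 1 more of the 10 genes, Gstt3, and by 3.96% of all genes tested.

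Gstm1, the main mu-class enzyme of mouse liver, was measured by 4 probe sets. On the brightest, of suffix _x_at, it had signals of 26978.6 and 35081.8 in AB6F1 and of 34799.3 and 33492.8 in B6AF1. AB6F1 replicate 1 stood apart below the other arrays, which lay close together. The log2 difference was -0.15 ± 0.15 (SE; limma adjusted p = 0.785), and it was 0.039 without AB6F1 replicate 1. The other probe sets of Gstm1 were at -0.15, -0.10 and 0.11, the last being the dimmest with signals from 710.4 to 1017.4. AB6F1 replicate 1 was lowest on 3 of the 4 probe sets, and on the dimmest B6AF1 replicate 2 was lowest.

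**Figure D2:**
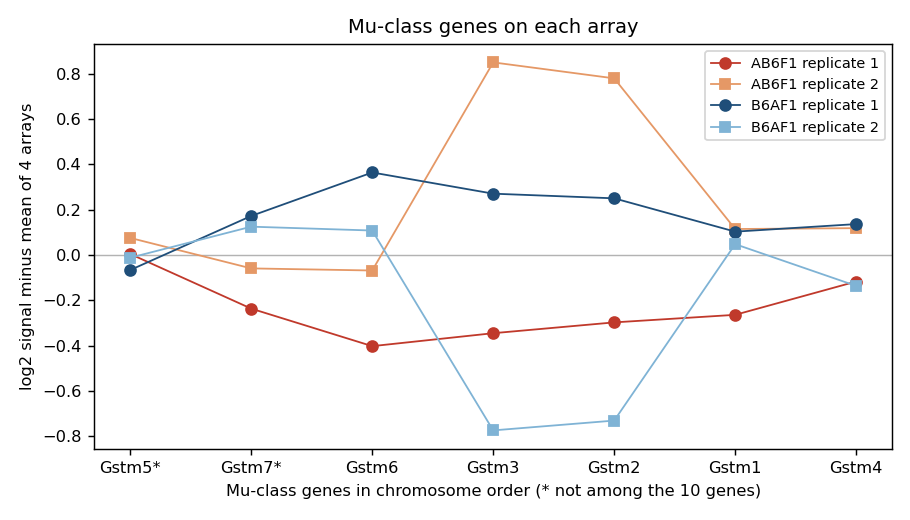
Log2 signal of the 7 tested mu-class genes in their order on chromosome 3, each centred on its mean over the 4 arrays, 1 line per array. The lines are widest apart at Gstm3 and Gstm2, from -0.77 to 0.85 and from -0.73 to 0.78, and close at Gstm5, from -0.07 to 0.07; lines join genes for reading only.

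The 7 tested mu genes lie together on chromosome 3 in the order Gstm5, Gstm7, Gstm6, Gstm3, Gstm2, Gstm1 and Gstm4, and the spread between arrays differed along this order. The highest array exceeded the lowest 1.10-fold for Gstm5, 1.33-fold for Gstm7, 1.70-fold for Gstm6, 3.08-fold for Gstm3, 2.85-fold for Gstm2, 1.30-fold for Gstm1 and 1.21-fold for Gstm4. The promoters of Gstm2 and Gstm3 are shown because these genes ranked the arrays in the same order, and that of Gstm6 because its difference had the opposite sign. They are reference sequences of GRCm38.p6 on the minus strand, at chr3:107986371-107986670 for Gstm2, chr3:107969125-107969424 for Gstm3 and chr3:107953417-107953716 for Gstm6, for which the first of 3 annotated starts was taken; capitals mark the same motifs as before.
Gstm2: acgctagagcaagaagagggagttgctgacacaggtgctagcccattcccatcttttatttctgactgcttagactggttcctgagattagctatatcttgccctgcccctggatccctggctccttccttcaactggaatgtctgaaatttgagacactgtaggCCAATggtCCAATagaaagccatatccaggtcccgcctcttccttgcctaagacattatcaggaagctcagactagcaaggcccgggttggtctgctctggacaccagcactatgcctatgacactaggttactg
Gstm3: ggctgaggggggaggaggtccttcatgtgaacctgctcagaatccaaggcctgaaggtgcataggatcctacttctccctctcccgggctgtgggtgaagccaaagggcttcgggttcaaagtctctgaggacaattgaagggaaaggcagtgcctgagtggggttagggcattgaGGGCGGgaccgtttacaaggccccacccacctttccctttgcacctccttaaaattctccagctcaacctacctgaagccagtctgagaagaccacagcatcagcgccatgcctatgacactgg
Gstm6: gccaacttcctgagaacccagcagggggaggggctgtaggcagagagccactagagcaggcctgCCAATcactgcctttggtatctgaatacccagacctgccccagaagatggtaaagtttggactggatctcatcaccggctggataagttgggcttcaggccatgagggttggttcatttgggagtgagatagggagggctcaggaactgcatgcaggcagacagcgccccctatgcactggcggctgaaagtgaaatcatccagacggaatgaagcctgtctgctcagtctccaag
Gstm2 carries a pair of CCAAT boxes, Gstm3 a GC box, and this start of Gstm6 one CCAAT box. No core of the antioxidant response element was found in the windows of these 5 mu genes, while the windows of Gstm5 and of one start of Gstm7 hold TGACNNNGC. The Gstm2 and Gstm3 windows were identical in 50.4% of aligned columns, near the median of 50.5% over 60 pairs of promoters of different mu genes.

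The alpha-class genes were both on the lower side in AB6F1. Gsta3, which in mice conjugates the epoxide of aflatoxin, had signals of 28781.7 and 30957.3 in AB6F1, against 32579.2 and 34637.6 in B6AF1. The pairs did not overlap, but the gap between them was small, and the log2 difference was -0.17 ± 0.12 (SE; limma adjusted p = 0.671). Its second probe set gave 10193 and 14937.4 in AB6F1 and 16654.6 and 14001.5 in B6AF1, where the crosses overlapped, at a log2 difference of -0.31.

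Gsta4, the enzyme that conjugates the lipid peroxidation product 4-hydroxynonenal, had signals of 3685 and 7386.2 in AB6F1, against 7859.8 and 6553 in B6AF1. AB6F1 replicate 1 was low, and AB6F1 replicate 2 lay between the B6AF1 mice. The mice were 2.004-fold apart in AB6F1 and 1.20-fold apart in B6AF1. The log2 difference was -0.46 ± 0.30 (SE; limma adjusted p = 0.659). It rested on that one mouse: without AB6F1 replicate 1 it was 0.042, and without AB6F1 replicate 2 it was -0.96 with a limma adjusted p of 0.0185, the single setting in which any of the 10 genes passed. There the lone AB6F1 array is assumed to vary like the B6AF1 arrays, and 242 of all genes passed.

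Gsta2, an alpha-class gene outside the 10, had the same mouse apart with a wider gap. Its signals were 2249.8 and 13296.9 in AB6F1, against 16226.9 and 12647.2 in B6AF1, so the AB6F1 males were 5.91-fold apart. The log2 difference was -1.39 ± 0.70 (SE; limma adjusted p = 0.58). The probe set of Gsta2 has the suffix _a_at. Gsta1, of the same class, had no tested value, and whether this probe set reads Gsta1 too was not tested. Averaged over Gsta3 and Gsta4 after centring each gene, the arrays stood at -0.43 and 0.12 in AB6F1 and at 0.20 and 0.11 in B6AF1 (log2). Gsta4 weighed most in this average, as the AB6F1 males were 2.004-fold apart for Gsta4 and 1.08-fold apart for Gsta3. AB6F1 replicate 1 was lowest of the 4 arrays for 5 of the 10 genes and highest for none, beside 24.7% and 32.1% of all genes tested. Other arrays were uneven too: B6AF1 replicate 1 was highest for 5 and lowest for none, beside 19.5% and 23.7%. AB6F1 replicate 2 was highest for 4 and lowest for 1, beside 23.4% and 24.7%. B6AF1 replicate 2 was lowest for 4 and highest for 1, beside 26.8% and 25%.

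The Gsta3 promoter is shown as the one window among the 9 genes with a reference promoter that holds the core TGACNNNGC (GRCm38.p6, chr1:21240335-21240634, plus strand, capitals as before). The core begins 121 bases before the start.
Gsta3: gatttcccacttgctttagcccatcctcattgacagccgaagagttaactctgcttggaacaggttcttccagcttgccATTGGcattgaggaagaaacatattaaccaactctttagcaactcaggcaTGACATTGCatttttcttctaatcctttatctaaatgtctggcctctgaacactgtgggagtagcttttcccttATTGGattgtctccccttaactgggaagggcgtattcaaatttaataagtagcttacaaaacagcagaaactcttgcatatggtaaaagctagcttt
TGAGNNNGC was found for Gstt1 as well as for Gstp1, and the CCAAT box for 7 of the 9 genes.

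Both theta-class genes differed little between the crosses. Gstt1, which acts on small halogenated hydrocarbons, had signals of 16048.8 and 16892.1 in AB6F1, against 17506.7 and 16941.4 in B6AF1. The pairs did not overlap, yet AB6F1 replicate 2 and B6AF1 replicate 2 were almost equal. The log2 difference was -0.065 ± 0.11 (SE; limma adjusted p = 0.876), with a 95% interval from -0.33 to 0.20, and its sign turned after quantile normalization (0.0045) and cyclic loess (0.026). Gstt3 had signals of 4520.4 and 5351.6 in AB6F1 and of 4879 and 4200.7 in B6AF1. These overlapped, at which is 0.12 ± 0.14 on the log2 scale (SE; adjusted p by limma = 0.814), which became -0.017 after median centring and -0.0022 without AB6F1 replicate 2.

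**Figure D3:**
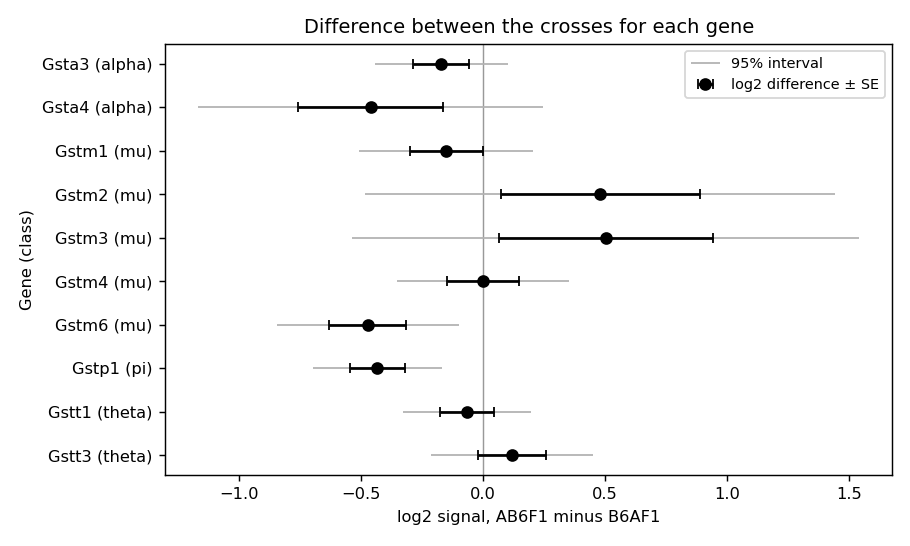
Log2 difference, AB6F1 minus B6AF1, of the 10 genes with SE (black bars) and the 95% interval of limma before adjustment (grey lines). The intervals of Gstp1 and Gstm6 lie below 0, and the other 8 include 0; Gstm2 and Gstm3 have the widest intervals above 0.

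Set side by side, the class medians were -0.32 for alpha, 0.00 for mu, -0.43 for pi and 0.03 for theta on the log2 scale, with 2, 5, 1 and 2 genes. No test was made between the classes. The median within-cross SD of log2 signal was 0.29 for alpha, 0.21 for mu, 0.03 for pi and 0.10 for theta, beside 0.19 over all genes tested. By order of difference the 10 genes ran Gstm6, Gsta4, Gstp1, Gsta3, Gstm1, Gstt1, Gstm4, Gstt3, Gstm2 and Gstm3. The 95% interval of each overlapped that of its neighbour in this order.

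**Figure D4:**
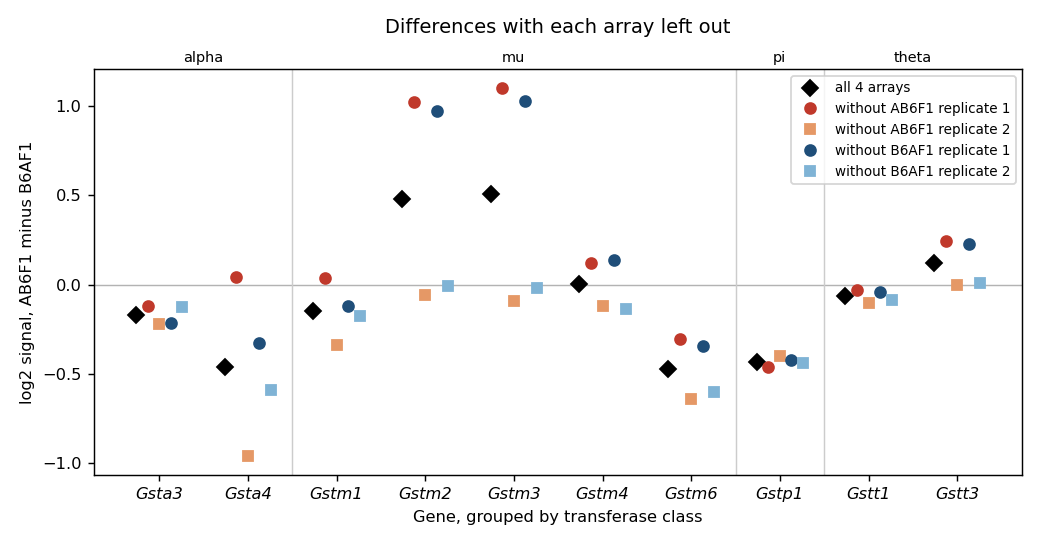
Log2 difference, AB6F1 minus B6AF1, of the 10 genes with all 4 arrays (diamonds) and with each array left out in turn. Gstp1 stays between -0.46 and -0.40, Gsta4 ranges from -0.96 to 0.042, and Gstm3 ranges from -0.093 to 1.10.

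Other enzymes of the family and of glutathione handling were read from named lists, without a test of any list. The counts of higher and lower genes below stand beside 46.5% lower and a median of 0.02 over all genes tested. Among 9 tested cytosolic and mitochondrial transferase genes outside the 10, 4 were higher and 5 were lower, none passed, and the median was -0.08. Gstp3, Gsta2 and Gstm7, already given, had the smallest p. Of 3 tested genes of the membrane-bound MAPEG family none passed. Mgst3, a microsomal transferase and peroxidase, had signals of 1892.8 and 2159.9 in AB6F1 and of 1322.3 and 1342.9 in B6AF1, which is 0.60 ± 0.13 on the log2 scale (SE; adjusted p by limma = 0.236). The abundant Mgst1 was at -0.07 ± 0.13, and Alox5ap at 0.21 ± 0.32.

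Genes of glutathione synthesis and recycling were lower for 7 of 10 tested, with a median of -0.13, and none passed. Cth, which makes cysteine from cystathionine, had signals of 14246.3 and 23315.7 in AB6F1 and of 28894.5 and 31065.9 in B6AF1, which is -0.72 ± 0.22 on the log2 scale (SE; adjusted p by limma = 0.384). Cbs, the step before it, was at -0.36 ± 0.13. Chac1, which degrades glutathione, was at 1.61 ± 0.60. Its signals were 1148.2 and 317.2 in AB6F1, far apart, and 282.6 and 137.5 in B6AF1. Among 7 tested glutathione peroxidases and glutaredoxins 4 were higher and 3 lower, and Gpx3, Glrx and Gpx7 had the smallest p, at 0.76 ± 0.26, -0.54 ± 0.23 and 0.65 ± 0.35; none passed.

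Genes that export or further process the conjugates were lower for 8 of 11 tested, with a median of -0.21, and none passed. Nat8, which acetylates cysteine conjugates to mercapturates, had signals of 1160.2 and 1312.5 in AB6F1 and of 2036.8 and 2059.6 in B6AF1, which is -0.73 ± 0.13 on the log2 scale (SE; adjusted p by limma = 0.152). Kyat1, a cysteine conjugate lyase, was at -0.82 ± 0.17 (limma adjusted p = 0.208). The exporter Abcc4 was on the opposite side, with signals of 306.8 and 638.7 in AB6F1 and of 66.4 and 72 in B6AF1, at 2.68 ± 0.39 (limma adjusted p = 0.072). Both B6AF1 signals lay close to the filter on dim genes, 60.9 as a signal, so the size of this difference is uncertain.

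Of 19 tested NRF2 targets outside the glutathione genes, 13 were higher and 6 lower, with a median of 0.11, and none passed. Hmox1, Pgd and Aox1 had the smallest p, at 1.03 ± 0.30, 0.79 ± 0.26 and -0.49 ± 0.20 (log2, SE). The classical NRF2 target Nqo1 was at 0.06 ± 0.24, with signals of 355.7 and 264.5 in AB6F1 and of 275.7 and 313.9 in B6AF1. Among 13 tested genes of the CAR and PXR list, 8 were higher and 5 lower, with a median of 0.05. Only the cytochrome P450 Cyp2b13 passed, 16.3-fold higher in AB6F1 (limma adjusted p = 0.0378). Its signals were 6942.3 and 12060.1 in AB6F1, against 325.3 and 963.8 in B6AF1, so the mice of a cross were far apart. It lost its call without either B6AF1 array, under robust moderation, without the intensity trend and with a filter at the 75th percentile. Cyp2b9 was at 1.11 ± 0.32, Gadd45b at 0.81 ± 0.39, and Nr1i3, which encodes CAR itself, at -0.41 ± 0.15 (limma adjusted p = 0.452).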

How the data were processed

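RNA extracted with Trizol from 4 livers was labelled as biotin cRNA and hybridised to Affymetrix arrays, per the labels' protocols. The deposited values are a linear intensity per probe set, made by the authors with MAS5 per the submitters' processing notes, with no version stated. Each array's mean was 500 after the lowest and highest 2% of values were dropped, so a shift of the whole transcriptome is hidden. Detection calls and scanner output were not analysed here.

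The platform annotation gave 1 symbol to 34945 probe sets, several to 932 and none to 9160, beside 64 controls. For 34741 of the probe sets with 1 symbol the gene was found in the RefSeq table of GRCm38.p6, and its symbol there was used. In all, 18193 genes had a probe set. Genes whose mean log2 signal reached the median over probe sets, 60.9 as a signal, were tested, 11749 in all, on log2 signal without a pseudocount, by limma 3.58.1 in R 4.3.3 (eBayes with trend; 4.97 prior and 2 residual degrees of freedom; two-sided; Benjamini-Hochberg, threshold 0.05). Separate fits with 16 added, other normalizations, filters and variance settings, and each array left out were run. The fit was tested on simulated data. Promoters came from RefSeq (GRCm38.p6), with windows for 9 of the 10 genes, and were aligned with Biopython 1.88. The number of arrays limits the precision.

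The genes and lists were chosen with earlier results of these data known. Named genes were the 10 members, and from each list every gene past the test and up to 3 others of smallest p; Nqo1, Gclc, Gclm, Gstm5 and the acute-phase genes Saa1 and Saa2 were added to that rule after their values had been looked at.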

Additional observations from a re-analysis of the deposited data

How the results depend on the processing

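Gsta3, Gstm6 and Gstp1 kept their sign and stayed short of the threshold in all 15 alternative fits. Their sizes moved, from -0.31 to -0.058 for Gsta3, -0.64 to -0.30 for Gstm6 and -0.57 to -0.32 for Gstp1. For Gsta3 and Gstp1 these ends were median centring and cyclic loess. The number of the 10 genes past the test was 0 in each alternative but one, with a range of 0 to 1 over fits without 1 array. With each array left out the log2 difference ranged from -0.96 to 0.042 for Gsta4, -0.34 to 0.039 for Gstm1, -0.057 to 1.02 for Gstm2, -0.093 to 1.10 for Gstm3, -0.14 to 0.14 for Gstm4 and -0.0022 to 0.24 for Gstt3. Without B6AF1 replicate 2, Gstm2 was at -0.0090 and Gstm3 at -0.018. The sign of Gstt1 turned after quantile normalization (0.0045) and cyclic loess (0.026). Median centring, which moved the median of all genes from 0.02 to -0.11, put Gstm4 at -0.14 and Gstt3 at -0.017.

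The median over the 10 genes ranged from -0.24 after median centring to 0.040 without AB6F1 replicate 1, and was -0.0057 after cyclic loess. The count over all genes, 25, was 49 after median centring, 46 at a threshold of 0.1, 0 without the intensity trend (1044 at an unadjusted p under 0.05, Gstp1 the one member among them) and 1 to 242 without 1 array. The count over the glutathione, NRF2 and CAR lists, 1, was 2 after median centring and at a threshold of 0.1, 0 with a filter at the 75th percentile, under robust moderation and without the trend, and 0 to 8 without 1 array. The causes were not tested. With the replicate number as a block these counts were 62 and 4, and none of the 10 genes passed; same-numbered arrays share only a number, and the correlation of their deviations across genes was -0.027. Signal over background could not be judged without detection calls.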

Other observations

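Serum amyloid transcripts, which the liver makes in the acute-phase response, were brightest in the AB6F1 male with the low Gsta4 and Gsta2 signals. Saa1 had signals of 20004.7 and 7701 in AB6F1 males against 2182.4 and 3186.3 in B6AF1 males, while Saa2 had 5785.8 and 3338.4 in AB6F1 males against 549 and 566.3 in B6AF1 males. Both were higher in both AB6F1 males, and Saa2 passed between the crosses (limma adjusted p = 0.00828), whereas Saa1 did not (0.152). The same male, AB6F1 replicate 1, had the lowest signals of Gsta2, Gsta4, Cth and Gclc and the highest of Chac1. Gclc, the catalytic subunit of the rate-limiting enzyme of glutathione synthesis, had signals of 14366.4 and 18837.9 in AB6F1, against 19382.1 and 20330.2 in B6AF1, and its other probe set was also lowest on that array. On its brightest probe set the partner subunit Gclm was instead lowest in AB6F1 replicate 2, at 8687.8 and 8074.2 in AB6F1, against 9509.8 and 9765.7 in B6AF1. The other probe set of Gclm was lowest in AB6F1 replicate 1, at 3746.9 and 3801 in AB6F1, against 4452.6 and 4006.5 in B6AF1. The genes were picked after their values were seen, and any relation between them was not tested.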
